A study of Mus musculus with 4 samples.

Results

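The clustered protocadherins are cell-surface adhesion proteins of the cadherin superfamily, encoded side by side in 3 arrays named alpha, beta and gamma on mouse chromosome 18. They were taken here as all protein-coding genes whose symbols start with Pcdha, Pcdhb or Pcdhg, which gave 57 of 21900 protein-coding genes, with 14 in alpha, 22 in beta and 21 in gamma. Each gene was given a window of its body with 5 kb on either side, and every region that overlapped a window and is listed in the authors' deposited table was counted once. This gave 91 of 484555 regions, of which 28 lay in alpha windows, 24 in beta windows and 39 in gamma windows.

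The libraries came from hair matrix keratinocytes, the proliferating epithelium of the hair bulb, of mice at postnatal day 4.5. One group was labelled Tet2/Tet3 DKO, Krt14-Cre, meaning a double knockout of the dioxygenases Tet2 and Tet3 with a Cre recombinase driven by the keratin 14 promoter, which is active in basal epithelial cells. The other group was labelled WT. There were 2 whole-genome bisulfite libraries per group, and the labels do not say whether these came from separate or pooled animals, nor their sex. TET enzymes oxidise 5-methylcytosine on the way to its removal, and the comparison asks how methylation differs without Tet2 and Tet3. A bisulfite level is the sum of 5-methylcytosine and 5-hydroxymethylcytosine. All levels below are group means from the authors' table. Values per library and read depth were not used here, so no difference has a replicate check, none was tested, and the only measure of error beside a level is the authors' spread estimate. A difference is the DKO level less the WT level, in percentage points. The columns are numbered, not named, and the WT was taken as number 1 because the title of the table names it first; with the opposite order every direction would turn. The cell identity and the loss of Tet2 and Tet3 were not checked, since the table holds methylation levels alone.

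Clustered protocadherins are best known from neurons, where each cell uses a small choice of them as a surface identity tag. In the alpha and gamma arrays every gene has its own promoter and a large variable first exon, which is spliced to constant exons shared by the whole array at its downstream end. Beta genes are single exons without a shared constant part. In mouse neurons, promoter choice depends on CTCF and cohesin, and methylation laid down by Dnmt3b marks promoters that are not chosen. The last genes of the alpha and gamma arrays (Pcdhac1, Pcdhac2, Pcdhgc3, Pcdhgc4 and Pcdhgc5, the C-type members) are known in the brain as expressed without such a choice.

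Methylation was lower in the DKO in nearly all listed regions of the clusters. Of the 91 regions, 83 were lower in the DKO and 8 were higher, while 51.8% of all listed regions were lower. Drops are listed from smaller sizes than gains, as set out below, so moderate gains can be missing from this count. From the Pcdha1 start to the end of gamma, listed regions held 6.33% of the spanned cytosine positions, and the direction at the others is not known. The median level was 66.9% in the DKO and 72.0% in the WT, with a median difference of -4.74 points (interquartile range -7.32 to -2.38). Over all listed regions the medians were 79.0% in the DKO and 77.8% in the WT, with a median difference of -0.24 points (-3.65 to 16.9). Gains of at least 20 points in the DKO numbered 4 of 91, against 22.9% of all listed regions. Drops of at least 10 points numbered 12 of 91, against 2.54% of all listed regions, and 6 were left with at least 3 positions and 3 with at least 10. The lowest difference in a member window was -14.8 points and the highest 28.5, beside a median of 3.68 points for the authors' spread estimate.

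The 3 arrays differed in how far the DKO lay below the WT. Median levels in alpha were 63.0% in the DKO and 68.6% in the WT, with a median difference of -7.50 points (interquartile range -11.0 to -3.51). In beta they were 61.2% in the DKO and 67.3% in the WT, with a median difference of -5.70 points (-7.38 to -4.73). In gamma they were 74.4% in the DKO and 77.0% in the WT, with a median difference of -2.42 points (-4.61 to -1.18). A drop of more than 2 times the authors' spread estimate was found in 15 of 28 alpha regions, 5 of 24 beta regions and 1 of 39 gamma regions, against 5.79% of all listed regions. At least 5 points lower in the DKO were 19 alpha, 16 beta and 9 gamma regions, against 16.9% of all listed regions. The DKO was higher in 2 alpha, 0 beta and 6 gamma regions. Regions are not replicates, and members of an array share them, so these are descriptions of the 3 arrays and no test between them was made. Alpha regions were also the smallest, with a median of 3 cytosine positions, against 8 in beta and 12 in gamma. Among regions of at least 3 positions the median difference was -6.37 points in alpha, -5.52 in beta and -2.70 in gamma.

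**Figure D1:**
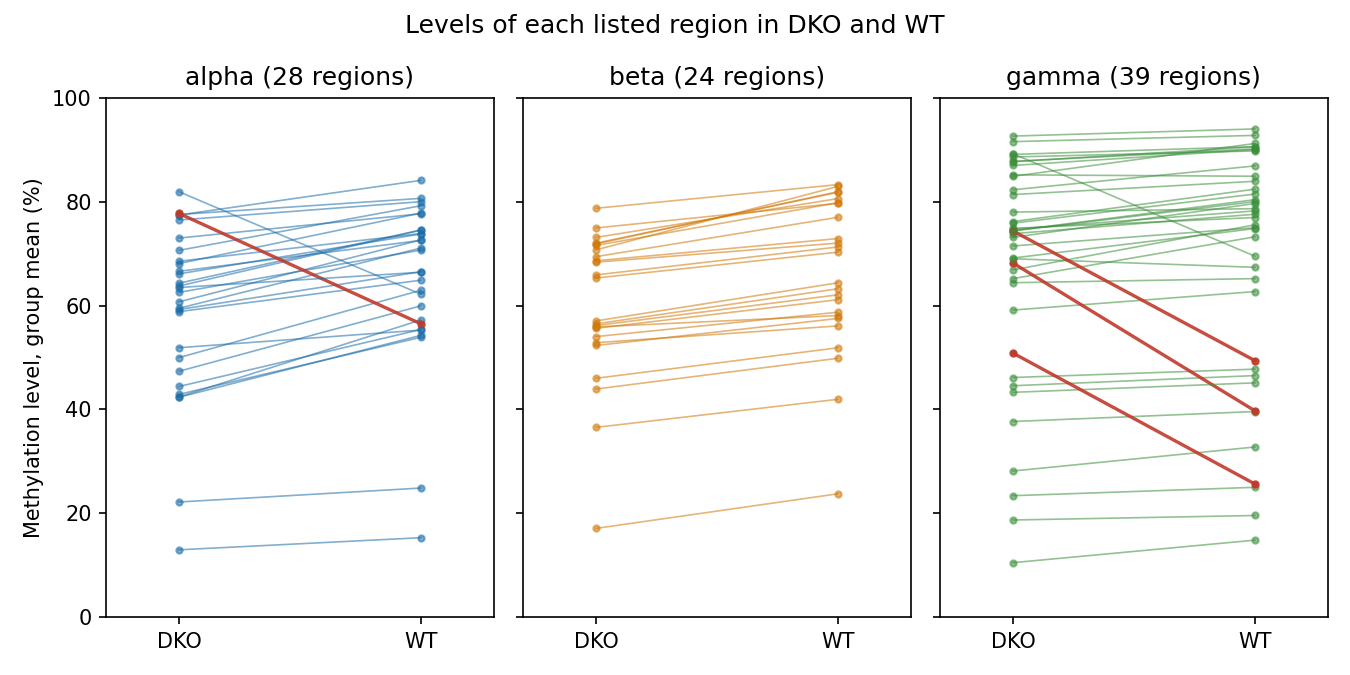
Methylation level (%, group mean) of each listed region in the DKO (left) and the WT (right), for alpha, beta and gamma windows, with 1 line per region and red lines for gains of at least 20 points. Nearly all lines run lower in the DKO, and the red lines number 1 in alpha, 0 in beta and 3 in gamma.

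The authors' statistic was not the bare ratio of the difference to the spread estimate, and its departure from that ratio changed along the clusters. This departure, the statistic per position minus WT minus DKO divided by the spread estimate, is called the offset here. A positive offset lets a region with equal levels count towards the side where the WT is higher. The median offset was -0.09 in alpha, 0.36 in beta and 1.29 in gamma, against 1.57 over all listed regions. It was below 0 in 16 of 28 alpha regions, in 0 of 24 beta regions and in 1 of 39 gamma regions, against 4.63% of all listed regions. The most extreme statistic of a listed region is at least 1.53 on the side of a higher WT, or at most -4.02 on the side of a higher DKO. At the median offset and spread estimate, a drop of about 6.04 points in alpha, 4.48 points in beta and 0.85 points in gamma reaches the first bound. A gain of about 14.6 points in alpha, 16.7 in beta and 18.6 in gamma reaches the second, against 20.6 points over all listed regions. The smallest drop that the table lists was 2.33 points in alpha, 2.19 in beta and 0.66 in gamma. The difference is itself a term of the offset, so they are not independent measures. The median statistic per position was 1.91 in alpha and 1.77 in both beta and gamma, against 1.76 over all listed regions. With statistics so alike, a larger drop goes with a lower offset by construction, and the drops computed from the offset share this. The part of the offset in the order of the medians and in the number of gains was not tested.

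**Figure D2:**
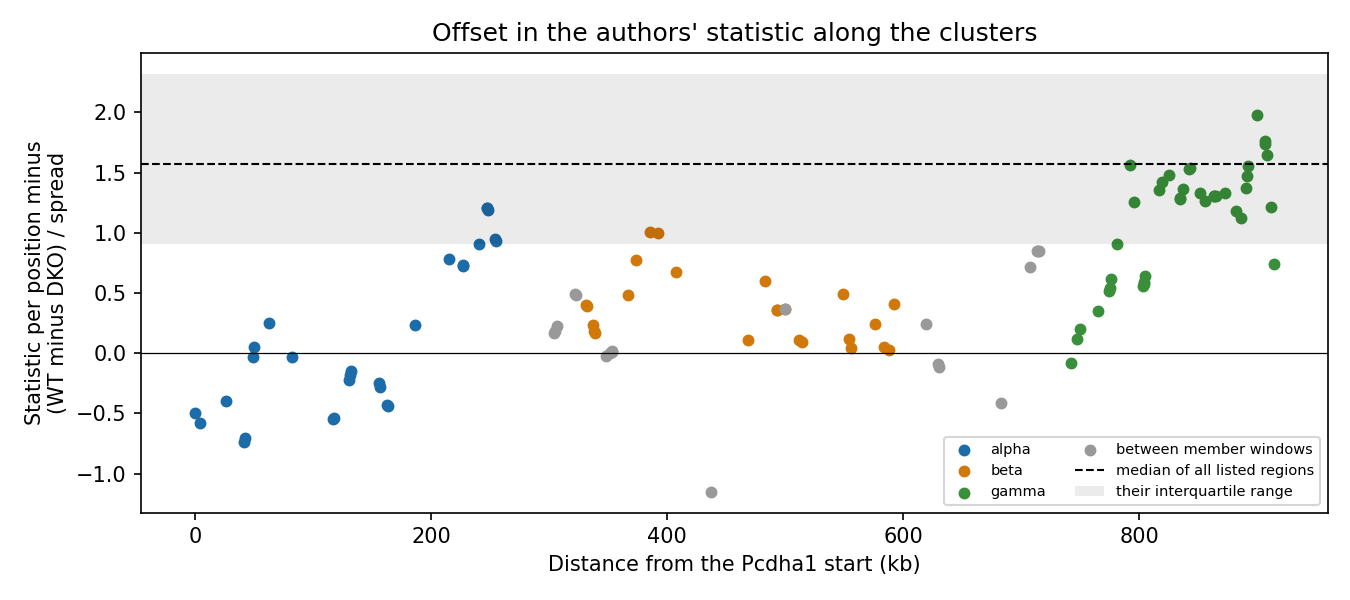
Offset in the authors' statistic (statistic per position minus the ratio of WT minus DKO to the spread estimate, y axis, no unit) against the distance from the Pcdha1 start (kb, x axis), with 1 point per listed region. Of the alpha points 16 of 28 lie below 0, and of the gamma points 13 of 39, mostly those before Pcdhga9, lie below the interquartile range of all listed regions (grey band, with their median of 1.57 as a dashed line).

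Along the chromosome, most listed regions were lower in the DKO from Pcdha1 to the Pcdhgc3 start. From there to the shared end of gamma, 4 of 9 were lower. Gamma regions across and past the shared end differed by -4.34 and -5.99 points. Where a stretch of drops begins or ends was not tested. From the Pcdha1 start to the end of gamma, over 912 kb, 98 of 107 listed regions were lower in the DKO, counting those between member windows. In the 1 Mb before Pcdha1, 145 of 253 listed regions were higher in the DKO, with a median difference of 1.03 points, and 66 were at least 20 points higher. In the 1 Mb after the end of gamma, 186 of 304 were higher, with a median of 1.35 points, and 94 were at least 20 points higher. Per 100 kb, listed regions were sparser in alpha and beta than over the whole table, while gamma was above the whole table and below both flanks. They numbered 10.4 per 100 kb in alpha windows, 11.8 in beta windows and 20.5 in gamma windows. Over the whole stretch from the Pcdha1 start to the end of gamma they numbered 11.7 per 100 kb, with 25.3 per 100 kb before and 30.4 per 100 kb after, against 18.2 per 100 kb over the whole table. Of the cytosine positions that the authors' index spans there, 6.33% lay in a listed region in the clusters, 21.1% before and 24.4% after, against 18.1% over all chromosomes. By this share gamma was sparse too, with 11.3% in its windows. It was 4.73% in alpha windows and 6.04% from Pcdhb1 to Pcdhb22.

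**Figure D3:**
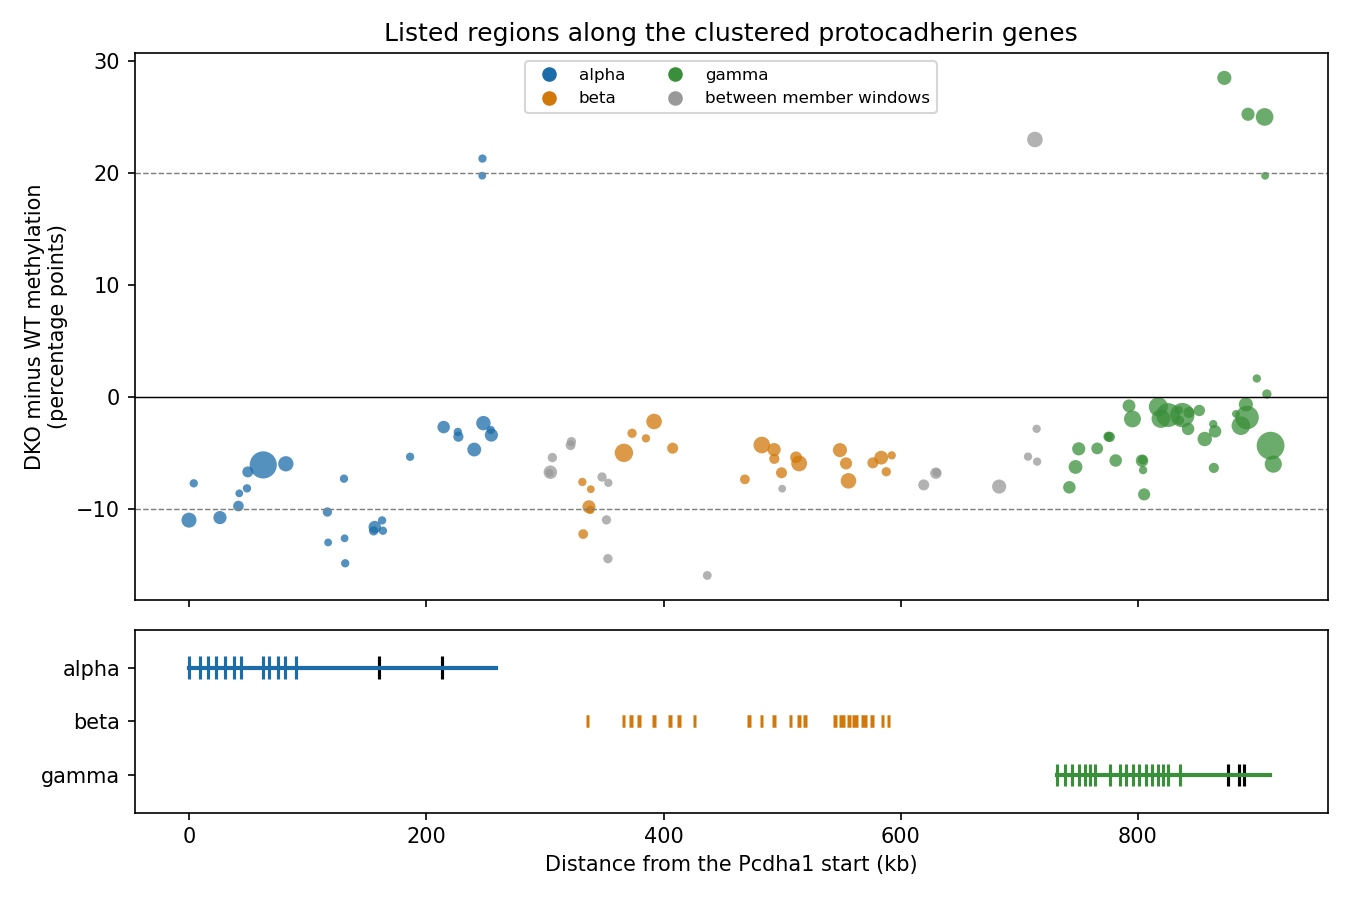
DKO minus WT methylation (percentage points, y axis) of each listed region against the distance from the Pcdha1 start (kb, x axis), with point area growing with the number of positions, dashed lines at 20 and -10 points, and gene positions below (black ticks mark C-type starts). Regions at least 10 points lower lie among alpha and the first beta genes and between member windows, and those at least 20 points higher lie in the Pcdhac2 gene, at Taf7 between beta and gamma, and at the gamma C-type genes.

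The variable part of the alpha array, with the bases just before it, held 8 of the 12 drops of at least 10 points in member windows. Between the start of Pcdha1 and that of Pcdhac1, over 160 kb, all 15 listed regions were lower in the DKO, with medians of 62.5% in the DKO and 72.6% in the WT and differences of -14.8 to -5.96 points. Pcdha1 is the first gene of the array, and its window held the most listed regions of the array, 28, since it spans the windows of all later members. The region nearest to it ended 21 bp before its start (chromosome 18, 36929927 to 36930264, 20 positions). It was at 44.4% in the DKO and 55.4% in the WT in the authors' deposited table, a difference of -11.0 points with a spread estimate of 3.62. A region 3158 bp downstream of the Pcdha4 start (36955847 to 36956575, 14 positions) was at 63.8% in the DKO and 74.5% in the WT by the authors' deposited table. Across the start of Pcdha8 the widest alpha region (36992279 to 36993126, 79 positions) was at 58.8% in the DKO and 64.9% in the WT, also in the authors' deposited table. Own stretches, from a member's start to the next, held listed regions for 9 of 14 alpha members. The medians of all 9 were below 0.

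The stretch from Pcdha12 to Pcdhac1 held 6 of the 10 alpha regions that were at least 10 points lower. It is the longest interval between neighbouring starts in the array, 69.9 kb, and its 7 regions differed by -14.8 to -7.29 points over 26 positions in all. The largest drop of the clusters' windows lay here (37061696 to 37061943), at 42.4% in the DKO and 57.2% in the WT in the authors' deposited table, but it held 2 positions. More positions, 12, stood behind a region 3293 bp before the Pcdhac1 start (37086646 to 37086843), at 59.5% in the DKO and 71.1% in the WT per the authors' deposited table. The remaining 4 in this stretch held 1, 1, 4 and 4 positions and were 10.3 to 13.0 points lower. Within Pcdhac1, a C-type member, 2 regions of 2 positions were lower by 11.0 and 11.9 points, with levels of 42.9% and 42.3% in the DKO against 53.9% and 54.3% in the WT in the authors' deposited table. All 10 alpha drops of this size exceeded 2 times their spread estimate.

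Smaller drops and the only gains of alpha lay at its downstream end. From the Pcdhac2 start to the end of the array, 7 of 9 listed regions were lower in the DKO, by 2.33 to 4.69 points, and 2 were higher. The offset differed here too, with a median of 0.84 from the Pcdhac1 start to the end of the array and -0.25 in the variable part before it, so that a drop of about 2.86 points downstream and 6.43 points in the variable part reaches the bound. The offset contains the difference, and its part in the contrast was not tested. The only alpha region at least 20 points higher (37177540 to 37177567) held 2 positions, with 77.8% in the DKO and 56.5% in the WT by the authors' deposited table. It lay 33862 bp past the Pcdhac2 start and 11330 bp before the most distal gene end of the array. A single position beside it (37177376) fell just short of 20 points, at 81.9% in the DKO and 62.2% in the WT, again from the authors' deposited table. Less than 1 kb further on, a region of 18 positions (37178108 to 37178591) was low in both groups, 12.9% in the DKO and 15.3% in the WT in the authors' deposited table. A region 1102 bp past the Pcdhac2 start (37144780 to 37144896) was also low in both, 22.1% in the DKO and 24.8% in the WT per the authors' deposited table.

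In the beta windows all 24 listed regions were lower in the DKO, by 2.19 to 12.2 points. Of the whole array from Pcdhb1 to Pcdhb22, stretches between windows included, 27 of 27 were lower, by up to 15.9 points. Listed regions were sparse, with 21 of 22 windows holding 1 to 5. Pcdhb1, the first gene, had the most, 5, and Pcdhb8 had none in its window. Both beta regions at least 10 points lower were in the Pcdhb1 window. The one 2369 bp before the gene (37262337 to 37262629, 5 positions) was at 70.7% in the DKO and 83.0% in the WT in the authors' deposited table. The one past its end (37268555 to 37268556, 2 positions) was at 71.9% in the DKO and 81.9% in the WT per the authors' deposited table. The median difference of the Pcdhb1 window, -9.80 points, was the lowest of the 57 members, and no other beta member was below -7.48.

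On the single-exon beta genes themselves no drop reached 10 points. In all 12 regions overlapped beta gene bodies, spread over 11 genes, with differences of -9.80 to -2.19 points and a median of -5.20. The 12 in beta windows outside the bodies had a median of -6.72 points. The one with the most positions was in Pcdhb2 (37296623 to 37297013, 33 positions), at 65.3% in the DKO and 70.3% in the WT in the authors' deposited table. The smallest drop was in Pcdhb5 (37322155 to 37322348, 22 positions), at 55.9% in the DKO and 58.1% in the WT by the authors' deposited table. Across the Pcdhb21 start (37513577 to 37513998, 16 positions) levels were 36.5% in the DKO and 41.9% in the WT per the authors' deposited table. The least methylated beta region ended 278 bp before the start of Pcdhb22, the last gene (37518002 to 37518075, 4 positions), with 17.1% in the DKO and 23.7% in the WT in the authors' deposited table.

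**Figure D4:**
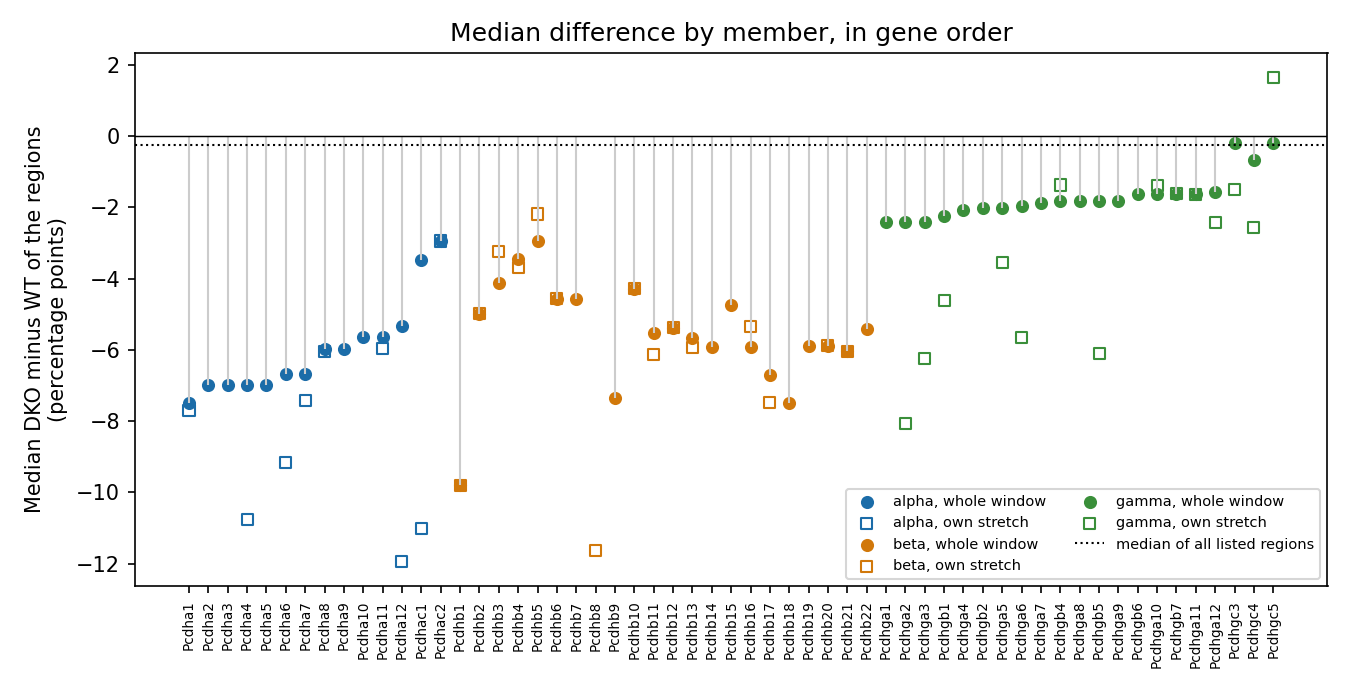
Median DKO minus WT difference (percentage points, y axis) of the listed regions of each member in gene order, for its whole window (filled circles) and for the stretch from its own start to the next start or gene end (open squares), with the median of all listed regions, -0.24 points, as a dotted line. Windows of alpha or gamma members overlap and share regions. Pcdhb8 has no circle because no listed region lies in its window.

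In the gamma array 7 of the 9 drops of at least 5 points lay before Pcdhga9. Between the starts of Pcdhga1 and Pcdhga9, all 14 regions were lower in the DKO, with a median of -5.12 points and a range of -8.69 to -0.79. Between the starts of Pcdhga9 and Pcdhgc3, the median of 14 regions was -1.77 points, and 1 of them was higher in the DKO. The median offset was 0.56 in the first of these stretches and 1.33 in the second. It contains the difference, and its part in the contrast was not tested. The other drops of at least 5 points were one of 6.33 points before Pcdhgc3 and one of 5.99 points past the shared end, within the neighbouring gene Diaph1. The largest gamma drop lay 1223 bp before Pcdhga9 (37735245 to 37735713, 11 positions), at 66.9% in the DKO and 75.6% in the WT in the authors' deposited table. Pcdhga1, Pcdhga2 and Pcdhga3 held the most listed regions of all members, 39 each, through windows that run to the shared end. Pcdhgc5 held the fewest of the array, 10. No gamma region was 10 points lower.

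The 3 large gains of gamma lay around the C-type genes and the shared constant end. The first was 3088 bp before the Pcdhgc3 start (37802869 to 37803322, 17 positions), at 68.2% in the DKO and 39.7% in the WT in the authors' deposited table, a difference of 28.5 points with a spread estimate of 3.94. It was the largest gain in any member window. The next was 3372 bp downstream of the Pcdhgc5 start (37822918 to 37823197, 14 positions), at 50.85% in the DKO and 25.6% in the WT by the authors' deposited table, a difference of 25.2 points with a spread estimate of 3.68. The last lay 4557 bp before the shared end (37836809 to 37837316, 30 positions), at 74.4% in the DKO and 49.4% in the WT per the authors' deposited table, a difference of 24.99 points with a spread estimate of 3.47. A single position beside it (37837487) was 19.7 points higher, just under 20, in the authors' deposited table.

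Between these gains the C-type genes of gamma held regions with differences below the spread estimate. A region of 58 positions less than 1 kb before the Pcdhgc5 gain (37821967 to 37822437) was at 43.3% in the DKO and 45.1% in the WT in the authors' deposited table. Within Pcdhgc4 a region of 34 positions (37816804 to 37817309) was at 81.4% in the DKO and 84.0% in the WT by the authors' deposited table, and the 1 region within the Pcdhgc3 stretch was 1.51 points lower. Past the last gain, a region of 83 positions across the shared end itself (37841453 to 37842724) was low in both groups. It was at 10.5% in the DKO and 14.8% in the WT per the authors' deposited table. Its difference of -4.34 points exceeded the spread estimate of 3.42.

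All 5 C-type members and all 30 other alpha and gamma members had a region at least 20 points higher in their windows, because every alpha or gamma window reaches the shared end of its array. With 0 of 22 beta members, this made 35 of the 57 members, or 61.4%, against 64.4% of all genes. In alpha it rests on 1 region of 2 positions (37177540 to 37177567). Among alpha regions of at least 3 positions, 0 were at least 20 points higher. By own stretches the picture was narrower. Regions of that size lay in the stretches of Pcdhac2, Pcdhga12 (the region before Pcdhgc3) and Pcdhgc5, and in none of the other 54. Of the 38 own stretches that held a listed region, 37 had a median below 0, and the exception was Pcdhgc5 at 1.65 points. A listed region lay in the windows of 56 of 57 members, against 88.6% of all genes. By whole windows, all 56 had a median below 0, from -9.80 to -0.20 points, against 50.8% of the genes that hold a listed region. A region at least 10 points lower lay in the windows of 13 alpha members, Pcdhac2 being the exception, 1 beta member and 0 gamma members, against 8.5% of all genes. A single region in Pcdhac1 (37092917 to 37092918) lies in all 13 of these alpha windows. Alpha members share regions in this way, as do gamma members, so these counts of members are not counts of separate loci.

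Near the starts of the genes, where the variable promoters lie, all listed differences were drops. Within 1 kb of a start lay 15 regions at 14 members, with differences of -11.0 to -0.87 points and a median of -4.74. Of these 15 drops, 10 exceeded the spread estimate and 1 exceeded 2 times it. In gamma these counts were 2 and 0 of 7. By the bounds above, a gain must be larger than a drop to be listed, so smaller gains at starts would be missing here. A listed region crossed the start of Pcdha8, Pcdhb21, Pcdhgb1, Pcdhga8 and Pcdhga11, and these were 1.61 to 6.06 points lower. Levels at gamma starts were low in both groups for some members. In the authors' deposited table the region across the Pcdhga11 start (37755406 to 37755976, 60 positions) was at 23.4% in the DKO and 24.97% in the WT. The region 334 bp past the Pcdhga10 start (37747350 to 37747571, 36 positions) was at 18.7% in the DKO and 19.5% in the WT in the authors' deposited table. No C-type member had a listed region within 1 kb of its start. A start without a listed region is not one of known level, since the table holds only regions past a bound.

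Over all listed regions, those of intermediate WT level were mostly higher in the DKO, but in the clusters most were lower. Among the 25 regions with a WT level of 20% to 60%, 4 were at least 20 points higher in the DKO and 21 were lower. Of all listed regions in this range, 79.1% were at least 20 points higher and 11.4% were lower. The median difference there was -3.40 points in the clusters and 27.1 points over all listed regions. By array, the count at least 20 points higher was 1 of 8 in alpha, 0 of 8 in beta and 3 of 9 in gamma. At WT levels of 60% to 80%, 37 of 40 regions were lower, with a median of -5.80 points, against 65.1% and -2.41 points over all listed regions.

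**Figure D5:**
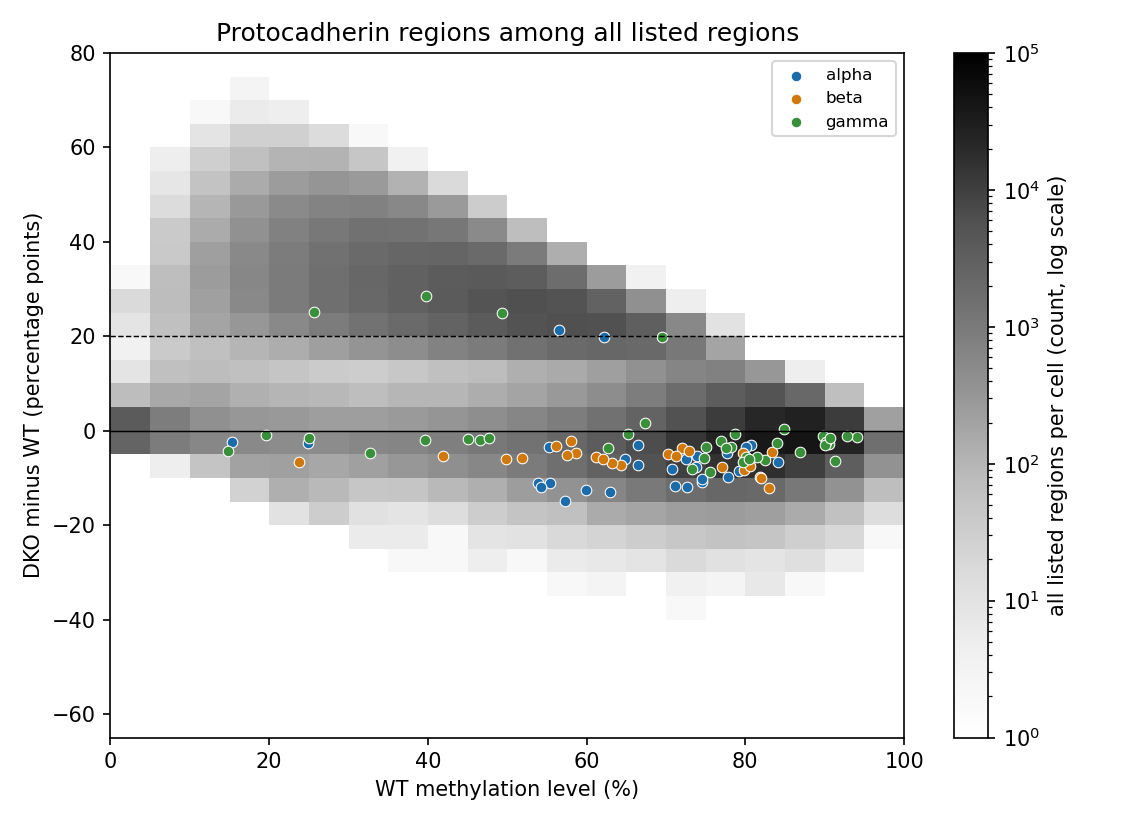
DKO minus WT difference (percentage points, y axis) against WT methylation level (%, x axis) for alpha, beta and gamma regions (points) over the count of all listed regions in cells of 5 by 5 points (grey, log scale), with a dashed line at 20 points. Between 20% and 60% in the WT the grey cells are densest above the dashed line, while 21 of the 25 protocadherin regions lie below 0.

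Genes that sit among or beside the arrays held some regions that did not share the drops. Between beta and gamma, 8 of 9 listed regions were lower in the DKO, by 2.84 to 7.99 points. The exception was inside Taf7, which encodes a subunit of the general transcription factor TFIID. This region (37643272 to 37643495, 22 positions) was at 78.3% in the DKO and 55.4% in the WT in the authors' deposited table. The Taf7 window held 4 listed regions, with a median difference of -4.08 points. The same gain lay in the window of Slc25a2, which held 2 listed regions, the other with a difference of -5.32 points. Between alpha and beta all 7 listed regions were lower. Outside the member windows lay 19 regions between the arrays and among beta genes, and the largest drop among them, 15.9 points over 3 positions, lay 11813 bp past the Pcdhb8 start. Diaph1, the formin gene beyond the end of gamma, held 19 listed regions, 7 with a gain of at least 20 points, up to 71.7% in the DKO against 28.7% in the WT in the authors' deposited table.

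Genes known to control or serve the clusters held both gains and drops. All 15 listed regulators, which include the architectural factor Ctcf, cohesin and its loader Nipbl, DNA methyltransferases and the repressors Smchd1 and Setdb1, had a region at least 20 points higher in the DKO, against 64.4% of all genes. The median of their gene medians was 0.58 points, against -0.07 over all genes with a listed region. The largest gains were at Wapl, a cohesin release factor, with 65.7% in the DKO and 10.6% in the WT over 2 positions, and at the maintenance methyltransferase gene Dnmt1, with 71.1% in the DKO and 31.8% in the WT, both in the authors' deposited table. A drop of at least 10 points lay in 3 of the 15, against 8.5% of all genes and 14 of the 57 members. The largest were at the cohesin subunit gene Stag2, which is X-linked, with 9.50% in the DKO and 24.1% in the WT, and at Smchd1, with 73.3% in the DKO and 87.2% in the WT, both in the authors' deposited table. The third was 11.2 points at the cohesin subunit gene Smc1a, also X-linked, in the authors' deposited table. All 6 signalling partners (Ptk2, Ptk2b, Wasf1, Ret, Axin1 and Fyn) had a region at least 20 points higher and 0 of 6 had one 10 points lower, against 8.5% of all genes. The largest gain in Fyn had 76.9% in the DKO and 20.5% in the WT, and that in Ret had 73.9% in the DKO and 29.1% in the WT, by the authors' deposited table. Their largest drops were 8.93 points in Fyn and 5.61 points in Ptk2b.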

How the data were processed

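The 2 DKO and 2 WT whole-genome bisulfite libraries were grouped by their titles. Trim Galore, Bismark and the build GRCm38 (mm10) are named in the submitters' processing notes. What called the regions, with which smoothing and filters, is not given in the sources used here. Per the file headers, the authors deposited 1 table with the mean methylation level of each group per region, as a fraction, multiplied to percent here. Per the file headers it also holds a statistic and a spread estimate, used as a score with no fixed range. Neither reads nor single libraries appear in it, so depth is unknown, the planned test on reads was not run, and no interval could be given. Coordinates are as deposited. Members, starts and ends were read from the RefSeq annotation of GRCm38; Pcdhgb8, a transcribed pseudogene there, is not a member. Of the 2-position regions 89.2% were 2 bp wide, so both strands of a CpG mostly count apart. Regions were assigned to windows by any overlap, and to stretches by their midpoint. An index of positions in the table gave the share of positions listed.

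The members and gene lists were chosen with earlier results of these data known. Genes named were those with the largest gain and drop of each array, any region at least 20 points higher or 10 points lower, members with the most, fewest or no regions, the C-type members, the first and last of each array, and 2 genes per direction of each related list; regions named beyond this were chosen after their values were seen. Overlap, counts and medians were checked on simulated data. Alternatives were other windows, minimum positions or length, merging within 500 bp, weighting by positions, midpoints and other minimum differences. Python 3.11.15, numpy 2.4.6, pandas 2.3.3 and matplotlib 3.10.9 were used.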

Additional observations from a re-analysis of the deposited data

How the results depend on the processing

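All 4 median differences (clusters, alpha, beta, gamma) kept their sign under the 9 alternatives run for each. They were -5.10 to -4.34 points in the clusters, -7.93 to -5.96 in alpha, -5.90 to -5.20 in beta and -2.84 to -1.93 in gamma. All moved by less than the authors' spread estimate, but this margin is wide, at 3.50 points in gamma for a median of -2.42. With at least 10 positions alpha was at -5.96 and beta at -5.38 points, so these arrays lay closer together than in the main setting. The count at least 20 points higher was 3 to 6, and 0 at 30 points. The count at least 10 points lower, 12, was 6 with 3 or 4 positions or more or 100 bp or longer, 3 with 10 positions or more, 44 at 5 points and 0 at 30 points, by construction as fewer or more regions qualify. Weighted by positions, the median level was 58.8% in the DKO and 62.1% in the WT, and with at least 10 positions the WT median was 67.7%. The minimum of 3 positions was chosen after seeing the data. No paired analysis was possible because the table holds group means and no values per library, and for the same reason no library could be left out. A drop exceeded the spread estimate in 20 of 28 alpha, 21 of 24 beta and 14 of 39 gamma regions. It exceeded 2 times that estimate in 15, 5 and 1 of them. Depth cannot be weighed.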

Other observations

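Protocadherin genes outside the clusters held both directions. Of 12 such genes 8 had a region at least 20 points higher in the DKO and 5 a region at least 10 points lower, against 64.4% and 8.5% of all genes. Among these 5, Pcdh11x and Pcdh19 are X-linked, and the sex of the animals is not given. Drops of at least 10 points were 2.11% of autosomal listed regions and 2.54% of all listed regions. Over the 556 listed regions of the 12 genes the median difference was -2.79 points, with 65.8% lower in the DKO and 15.5% at least 20 points higher. Most of these regions lay in Pcdh15 (191), Pcdh9 (137) and Pcdh7 (117), so the pooled values mainly describe these genes. Medians of single genes ran from -8.78 points in Pcdh11x to 20.4 in Pcdh1, and 7 of the 11 genes with a listed region were below 0. The largest gains were in Pcdh7 (74.3% in the DKO, 28.5% in the WT, 2 positions) and Pcdh15, a protein of hair cell tip links in the ear (68.4% in the DKO, 24.4% in the WT), in the authors' deposited table. The largest drops were in Pcdh15 (47.4% in the DKO, 70.4% in the WT, 4 positions) and X-linked Pcdh11x (61.8% in the DKO, 78.8% in the WT, 1 position), in the authors' deposited table. Pcdh1, on the same chromosome as the clusters, had 9 of 17 regions at least 20 points higher. All 9 cadherins listed beside the protocadherins had a region at least 20 points higher, against 64.4% of all genes. The largest gains were in Cdh4 (71.4% in the DKO, 20.9% in the WT) and Cdh1, the epithelial E-cadherin (67.3% in the DKO, 20.04% in the WT). Yet 7 of the 9 had a median difference below 0, against 50.8% of the genes that hold a listed region. A drop of at least 10 points lay in 3 of the 9, against 8.5% of all genes. The largest drops were 13.6 points in Cdh13, which is anchored by a lipid and lacks a cytoplasmic domain, and 12.7 points in Cdh8, per the authors' deposited table.

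Olfactory receptors, another large family of tandem genes, gave region values near those of the clusters, but a smaller share of them held a listed region. A listed region lay in the windows of 423 of 1110 genes, against 88.6% of all genes and 56 of the 57 protocadherin members. Over the 930 listed regions of these receptors, 88.9% were lower in the DKO and 4.19% were at least 20 points higher. Their median difference was -5.92 points and their median offset 0.31. The 39 Hox genes, a family of clustered developmental regulators, had 108 listed regions with a median difference of 0.45 points, 20.4% at least 20 points higher and a median offset of 2.04. No test between these families was made.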
